A study of Mus musculus with 4 samples.

Results

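The D cyclins and the retinoblastoma proteins were followed through muscle regeneration in 8 genes: the cyclins Ccnd1, Ccnd2 and Ccnd3, their kinases Cdk4 and Cdk6, and the pocket proteins Rb1, Rbl1 and Rbl2. They were chosen by name and are 8 of the 12394 named genes on the array. All 8 were found, with 20 probe sets that carry only their symbol. The RNA came from myogenic cells purified, without culture, from hind limbs of C57BL/6 mice that were 8 to 12 weeks old. Their muscle had been injured with cardiotoxin, a snake toxin that destroys muscle fibres. The 4 groups were cells taken 2, 3, 5 and 14 days after that injury, with 1 Affymetrix mouse 430A array each and no uninjured group. The labels do not say how many mice stand behind an array. They cite the antibody SM/C-2.6 and do not describe the gates of the purification, so each array is a sorted population and not a clone.

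The D cyclins carry growth signals into the cell cycle. They bind Cdk4 or Cdk6, and the active kinase phosphorylates the pocket proteins, which otherwise hold E2F transcription factors in check and keep genes of DNA replication low. In muscle precursors cyclin D1 is known to oppose differentiation, whereas cyclin D3 and the retinoblastoma protein are known to accumulate as myoblasts leave the cycle and build myotubes. Rbl1 (p107) is typical of dividing cells and Rbl2 (p130) of resting cells.

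With 1 array per day there is no replicate and no test, and no p-value is given. Signals are MAS5 signals on a linear scale, in arbitrary units, scaled to a common trimmed mean. Values under 43.0, the median of all scaled values, were set to that floor before a ratio was taken. A gene was called higher or lower when 2 arrays differed by 2-fold or more, so that a call is a size and not a test. Where the lower of the 2 values was set to the floor, the ratio is a bound, written as at least N-fold. Genes at the floor on both days of a pair count as not measured. A gene at the floor on 1 day of a pair is measured only by being higher on the other, so the direction of a bound is fixed. Each gene is represented by its probe set of highest mean signal, and the others are given beside it. Levels are compared between days for a probe set and never between genes. Between probe sets of the same gene, log2 ratios varied with an SD of 0.36, 0.37 and 0.32 at the steps from day 2 to 3, 3 to 5 and 5 to 14, and of 0.55 over the whole course, day 14 against day 2. This SD does not include the spread between animals.

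Over the whole array, the median log2 ratio of measured genes was 0.06, 0.06 and 0.01 for the 3 consecutive steps and 0.20 for day 14 against day 2. With the values as deposited these medians were -0.12, 0.33, -0.08 and 0.23. The share of calls that were higher was then 52.6%, 87.4% and 50.5% at the 3 steps, against 78.8%, 66.1% and 60.8% after scaling. For day 14 against day 3 it was 72.5% as deposited and 58.6% after scaling, and for day 5 against day 2 it was 52.9% after quantile normalization and 63.4% after scaling. These medians and shares leave out genes at the floor on both days. The scaled median of all probe sets was 29.5, 41.7, 49.1 and 52.8 on days 2, 3, 5 and 14. On those days 45.0%, 49.5%, 52.0% and 53.5% of probe sets were above the floor. The middle of the scaled signals was thus lowest on day 2. The part of this in the ratios of Ccnd2, Rb1 and Rbl2 to day 2 was not tested. Of the markers of the labelled cell type, 9 of 10 myogenic markers were above the floor on day 2 and 10 of 10 on each later day. The exception was Pax7, which read 35.7, 59.4, 217 and 323 on days 2, 3, 5 and 14. The summed signal of the 10 myogenic markers was 9895, 16218, 16027 and 16013. Myogenic RNA was thus present on each array, and its share of the population was not measured. Markers of other cells were higher on later days. The summed signal of 7 fibroblast markers was 1931, 4297, 13217 and 20765 on days 2, 3, 5 and 14, with 4, 5, 7 and 7 of them above the floor. That of 6 mural and smooth muscle markers was 833, 4003, 10317 and 9877, with 1, 5, 5 and 6 above the floor. That of 12 leukocyte markers was 257, 687, 1809 and 1795, with 3, 6, 9 and 8 above the floor, and Itgam, Cd3e and Cd79a under it on every day. That of 8 endothelial markers was 130.2, 188, 333 and 674, with 0, 2, 3 and 4 above the floor, and Pecam1, Cdh5, Tie1 and Emcn under it on every day. None of these 7 markers was at exactly 0. In a sorted population, fewer cells of a type and less RNA per cell cannot be told apart. The part of these cells in the results below was not tested.

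Ccnd1, which encodes cyclin D1, was high early, lowest on day 5 and higher again on day 14. Its main probe set read 2673, 801, 303 and 1324 on days 2, 3, 5 and 14. Day 2 was thus the highest array and day 5 the lowest. The signal was 3.34-fold lower on day 3 than on day 2, 2.64-fold lower on day 5 than on day 3 and 4.37-fold higher on day 14 than on day 5. The second probe set read 724, 507, 106 and 278, and the third 323, 153, 99.4 and 224. All 3 probe sets had day 2 highest and day 5 lowest, but they placed the main decrease differently. The log2 ratio of day 3 over day 2 ran from -1.74 to -0.51, and that of day 5 over day 3 from -2.26 to -0.62. The decrease between day 2 and day 5 was past 2-fold in 3 of 3 probe sets (8.83-fold, 6.86-fold and 3.25-fold), and so was the increase between day 5 and day 14 (4.37-fold, 2.63-fold and 2.26-fold).

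On day 14 Ccnd1 still read 2.02-fold lower than on day 2, close to the threshold, with probe sets at log2 ratios from -1.38 to -0.53. This call was lost with the values as deposited (log2 ratio -0.98), after quantile normalization (-0.86) and with log2 of signal plus 32 (-0.996). Against day 3, day 14 had no settled direction: the 3 probe sets gave log2 ratios from -0.87 to 0.73, and none was past 2-fold. With the median over probe sets in place of the main probe set, the step to day 3 was also short of a call, at a log2 ratio of -0.51.

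Ccnd2, which encodes cyclin D2, was lowest on day 2 and highest on day 14. Its main probe set read 51.2, 70.3, 119 and 290.3 on days 2, 3, 5 and 14. Each array was higher than the one before it, and day 14 was 2.44-fold above day 5. With the median over all 7 probe sets that step was short of a call, at a log2 ratio of 0.34, below the 0.56 of day 5 over day 3 under the same setting. Day 14 was 5.67-fold higher than day 2, where the gene lay just above the floor. Of its 7 probe sets, 5 were measured in that comparison and all 5 were higher, with log2 ratios from 0.77 to 2.50, of which 4 are lower bounds. Those 4 lay under the floor on day 2 and could be measured only by being higher on day 14. Their direction is therefore no added support for the main probe set. Among the 5 measured, 3 were past 2-fold: the probe set that read 195 on day 14 was at least 4.53-fold higher and that of 152 at least 3.54-fold higher. The remaining 2 probe sets lay under the floor on every day, with a highest reading of 17.1. The median over all 7 probe sets also left the ratio of day 14 to day 2 short of a call, at a log2 value of 0.90.

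Ccnd3, which encodes cyclin D3, was higher from day 3 onward and then level. Its only probe set read 330.1, 765, 990.3 and 994 on days 2, 3, 5 and 14. Day 2 was the low array and days 5 and 14 were nearly equal. The signal was 2.32-fold higher on day 3 than on day 2, 1.29-fold higher on day 5 than on day 3 and within a log2 ratio of 0.01 on day 14 against day 5. Over the whole course it was 3.01-fold higher on day 14 than on day 2, and this log2 ratio, 1.59, ranged from 1.503 to 1.647 over 9 other settings. The log2 ratio of day 3 over day 2, 1.21, ranged from 1.03 to 1.21 and was called in each of them. Several of these settings could not weaken either call. The only probe set lay above every floor used, so the other floors and probe set choices repeat both ratios. The lower fold for a call repeats them too. Only the other scalings and the setting that adds a constant to the signal could move them. The step to day 3 is that at which Myog, the transcription factor of terminal muscle differentiation, read 3876 on day 3 against 261 on day 2. The summed signal of 8 markers of differentiated muscle was 415, 12095, 5724 and 3122 on days 2, 3, 5 and 14, with 5, 7, 7 and 7 above the floor, and their part in the level of Ccnd3 was not tested.

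**Figure D1:**
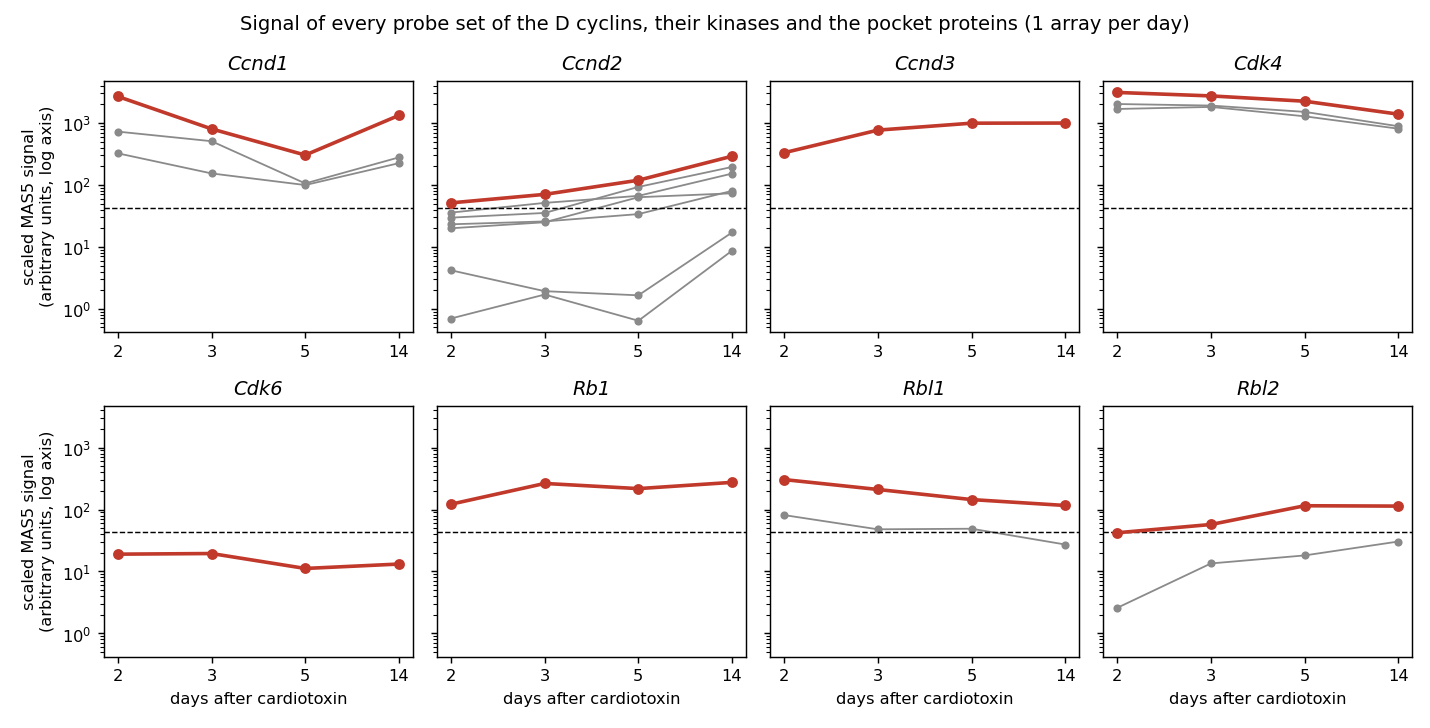
Scaled MAS5 signal (arbitrary units, log axis) by day after cardiotoxin (days evenly spaced) for every probe set of the 8 genes, with 1 array per day. The red line is the probe set that represents the gene, grey lines are its other probe sets, and the dashed line is the floor of 43.0. Ccnd1 has its lowest signal on day 5 in all 3 probe sets, Ccnd3 is level from day 5, and Cdk6 stays under the floor.

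Of the kinases, Cdk4 was lower on day 14 and Cdk6 was not measured. The main Cdk4 probe set read 3102, 2727, 2240.0 and 1384 on days 2, 3, 5 and 14, lower on each later array. Between neighbouring days the differences stayed short of a call, the largest being a 1.62-fold lower signal on day 14 than on day 5. Day 14 was 2.24-fold lower than day 2. The other 2 probe sets gave 2.28-fold and 2.08-fold for the same pair, so the 3 probe sets lay within log2 ratios of -1.19 to -1.06. After quantile normalization the ratio was just short of a call, at -0.99. The Cdk6 probe set read 19.0, 19.5, 11.2 and 13.2, under the floor on all 4 days, which says only that this probe set gave no usable signal.

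The pocket proteins parted in direction. Rb1, the retinoblastoma protein itself, read 122, 263, 218 and 274 on days 2, 3, 5 and 14. Day 2 was the low array, and days 3, 5 and 14 lay within 1.26-fold of their neighbours. The signal was 2.16-fold higher on day 3 and 2.25-fold higher on day 14 than on day 2. Both calls were near the threshold: after quantile normalization the log2 ratios were 0.91 and 0.93, and with the values as deposited that of day 3 was 0.93.

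Rbl1, which encodes p107, read 304, 211, 145 and 116 on days 2, 3, 5 and 14. It was lower on each later array, by steps that were each short of 2-fold. Day 14 was 2.62-fold lower than day 2 and day 5 was 2.10-fold lower. The day 5 call was lost with the values as deposited (log2 ratio -0.95), with log2 of signal plus 32 (-0.93) and with the median over probe sets (-0.90). The log2 ratio of day 14 over day 2, -1.39, ranged from -1.58 to -1.15 and was called under all 9 other settings. With every signal of the main probe set above 100, the other floors and calls at 1.5-fold could not weaken this call. The second probe set read 81.3, 47.9, 49.0 and 27.2, and was at least 1.89-fold lower on day 14 than on day 2.

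Rbl2, which encodes p130, read 42.2, 57.3, 115 and 114 on days 2, 3, 5 and 14. Days 5 and 14 were high and nearly equal, and day 2 lay just under the floor. Against day 2 the gene could therefore be measured only by being higher, and its direction there is no result. Day 5 was 2.01-fold higher than day 3, at the edge of a call that was lost under 5 of 9 other settings, and day 14 was at least 2.64-fold higher than day 2. The call for day 14 against day 2 was lost under 4 of 9 other settings, at log2 values of 0.18 with a floor of 100, 0.70 with the median over probe sets, 0.79 after quantile normalization and 0.97 with log2 of signal plus 32. The second probe set read 2.59, 13.5, 18.2 and 30.5, under the floor throughout, so it gave no ratio.

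Counted by comparison, 7 of the 8 genes could be measured in each. For day 3 against day 2, 2 were higher (Ccnd3 and Rb1) and 1 lower (Ccnd1), where 8.5% of all measured genes were called, 6.69% higher and 1.8% lower. For day 5 against day 3, 1 was higher (Rbl2) and 1 lower (Ccnd1), where 17.6% of all measured genes were called, 11.6% higher and 5.97% lower. For day 14 against day 5, 2 were higher (Ccnd1 and Ccnd2) and 0 lower, where 7.91% of all measured genes were called, 4.81% higher and 3.1% lower.

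Over the whole course, day 14 against day 2, 4 genes were higher (Ccnd2, Ccnd3, Rb1 and Rbl2) and 3 were lower (Ccnd1, Cdk4 and Rbl1). Rbl2 was at the floor on day 2 and could be measured here only as higher. The background of this comparison is broad, since 37.6% of all measured genes were called, 22.8% higher and 14.8% lower. The count of 7 was 3 after quantile normalization and 4 with log2 of signal plus 32, so several of these calls lie close to 2-fold. The median log2 ratio of the 7 genes was 1.17, beside 0.20 for all measured genes, but a median over genes of opposite direction describes none of them well. Neighbouring steps use the array between them in common, so an odd value there moves both, in opposite directions.

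The labels of days 2 and 5 are worded alike, and those of days 3 and 14 are worded alike in another way. Whether this marks separate handling is not stated. Day 5 against day 2 and day 14 against day 3 each stay within a wording. Between day 5 and day 2, 3 genes were higher (Ccnd2 2.32-fold, Ccnd3 3.00-fold, Rbl2 at least 2.68-fold) and 2 lower (Ccnd1 8.83-fold, Rbl1 2.10-fold), where 31.1% of all measured genes were called, 19.8% higher and 11.4% lower. The Ccnd2 and Rbl2 calls of this comparison were each lost under 4 of 9 other settings, and with a floor of 100 their log2 values were 0.25 and 0.20. Rbl2, at the floor on day 2, could again be measured only as higher. Between day 14 and day 3, 1 was higher (Ccnd2, 4.13-fold) and 0 lower, where 27.9% of all measured genes were called, 16.3% higher and 11.5% lower. With the median over probe sets this Ccnd2 call was lost, at a log2 value of 0.90. Cdk4 read 1.97-fold lower and Rbl2 1.98-fold higher in that comparison, both just short of a call.

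**Figure D2:**
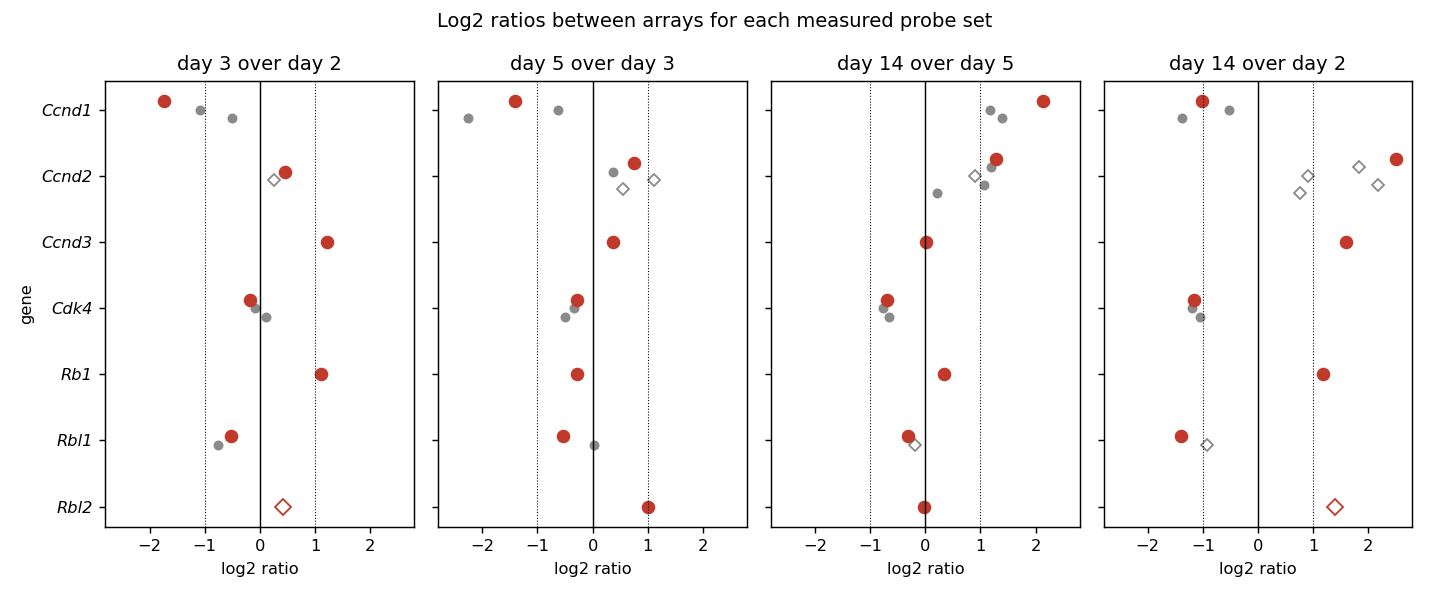
Log2 ratio between 2 arrays for each measured probe set, later day over earlier day, in 4 comparisons. Red marks the probe set that represents the gene, grey its other probe sets, open diamonds ratios with 1 side at the floor, and dotted lines 2-fold. The Ccnd1 probe sets are all left of 0 for day 3 over day 2 and day 5 over day 3 and all right of it for day 14 over day 5, and in the last panel Ccnd2, Ccnd3, Rb1 and Rbl2 lie right of 0 and Ccnd1, Cdk4 and Rbl1 left.

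While Ccnd1 was higher on day 14 than on day 5, genes of the later cell cycle were lower or short of a call. Mki67, which marks proliferating cells, read 737 on day 14 against 725 on day 5. Of 4 measured markers of proliferating cells, 0 were called, 3 had log2 ratios below 0 and 1, Mki67, above it. Their median log2 ratio was -0.45, and their summed signal was 1769 on day 5 and 1368 on day 14. Of 23 measured E2F target genes of S phase, 5 were lower on day 14 than on day 5 and 0 were higher, with a median log2 ratio of -0.83 beside 0.01 for all measured genes. Of all measured genes, 3.1% were called lower at this step. Tk1, thymidine kinase, was 3.40-fold lower, Rrm2, a subunit of ribonucleotide reductase, 2.67-fold and Brca1, a DNA repair protein, 2.20-fold. The second Brca1 probe set was at the floor on day 5, and its log2 ratio of 0.08 is a bound. Over all genes measured in both steps, 10 of 7345 (0.136%) were called lower on day 5 against day 3 and then higher on day 14 against day 5, and Ccnd1 was the only one of the 8 genes among them. Both steps share the day 5 array, and this shape was picked after the values of Ccnd1 were seen. The other 9 genes were Aqp1, Cd24a, Cdkn1a, Id1, Idi1, Lrrc1, Msmo1, Myh1 and Osgin2. Cdkn1a, which encodes the kinase inhibitor p21, read 2363, 3751, 1440.2 and 2886 on days 2, 3, 5 and 14, and Id1, an inhibitor of differentiation factors, read 223, 246, 99.5 and 408.

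**Figure D3:**
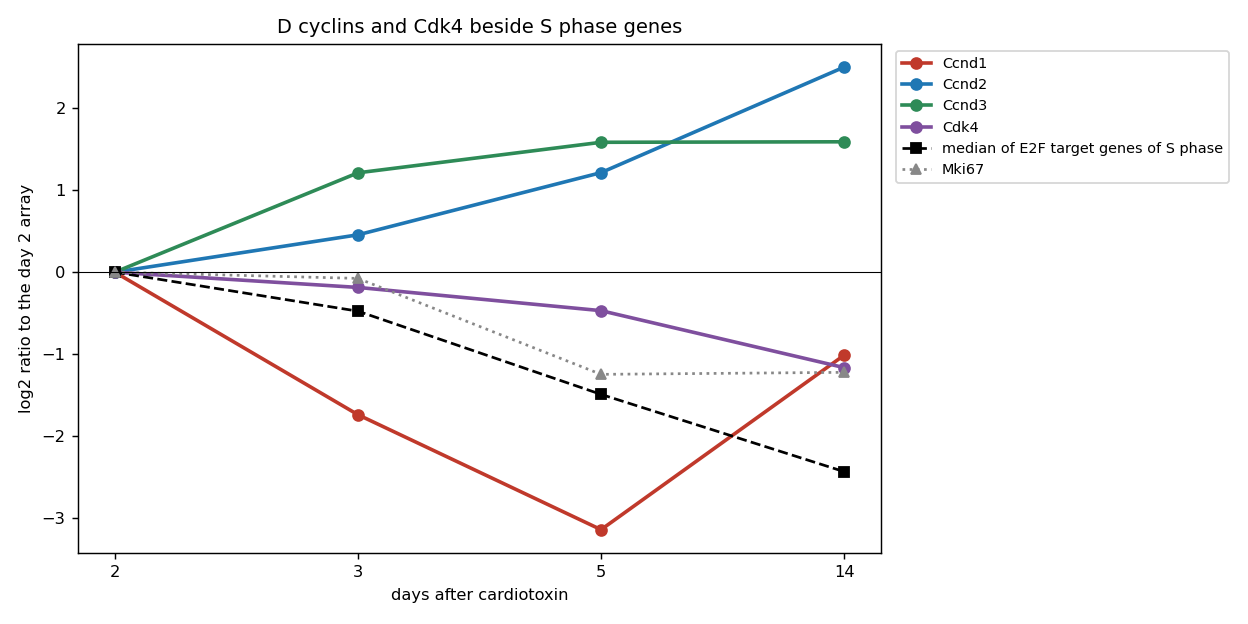
Log2 ratio to the day 2 array by day after cardiotoxin (days evenly spaced, not to scale) for Ccnd1, Ccnd2, Ccnd3, Cdk4, Mki67 and the median of the measured E2F target genes of S phase, with 1 array per day. Ccnd1 reaches -3.14 on day 5 and -1.01 on day 14, whereas the E2F target median goes on to -2.43 and Ccnd2 reaches 2.50.

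The partners of the pathway were read from 7 lists. The E2F target genes of S phase were lower as a group. Of 24 measured for day 14 against day 2, 24 were lower and 0 higher, where 14.8% of all measured genes were called lower. Among them Orc1 was at the floor on day 14 and could be measured only as lower. The median log2 ratio of the list was -2.43 beside 0.20 for all measured genes. Tk1 was 14.7-fold lower, Cdc6, which loads the replicative helicase, 10.5-fold and Gins1, a part of that helicase, 8.79-fold. At the steps, 3 of 24 were lower on day 3 against day 2 and 13 of 23 on day 5 against day 3, with none higher. Of all measured genes, 1.8% and 5.97% were called lower at these steps. The lower calls of day 3 were Gins1 (2.68-fold), Orc1, an origin binding protein (at least 2.41-fold), and Cdc6 (2.06-fold).

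The late G1 cyclins and kinases downstream of cyclin D went the same way. Of 10 measured for day 14 against day 2, 8 were lower and 0 higher, where 14.8% of all measured genes were called lower. Ccne2, Myb and Mybl2 were at the floor on day 14 and could be measured only as lower. The median log2 ratio of the list was -2.12. Cdk1, the mitotic kinase, was 8.97-fold lower, Ccne2, a cyclin E, at least 7.06-fold and Ccna2, cyclin A2, 5.32-fold. Cdk2, the partner kinase of cyclins E and A, read 110.3 on day 14 against 176 on day 2, short of a call. For day 5 against day 3, 4 of 10 were lower, where 5.97% of all measured genes were called lower. Cdk1 was lower by 3.78-fold, Ccne2 by 3.02-fold and Ccna2 by 2.12-fold. For day 3 against day 2, 2 of 10 were lower, where 1.8% of all measured genes were called lower. Both were near the threshold: Cdc25a, a phosphatase that activates Cdk2 (2.03-fold), and Skp2, which marks p27 for degradation (2.02-fold, with a second probe set at a log2 ratio of -0.34).

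The E2F factors themselves were measured in part. Of 6 measured for day 14 against day 2, 3 were lower and 0 higher, where 14.8% of all measured genes were called lower. The median log2 ratio of the 6 was -0.86. The 3 lower genes were E2f8, a repressor of the family, 8.38-fold, Tfdp1, the DP1 partner of E2F proteins, 3.14-fold and E2f1, an activator, 2.41-fold. The second E2f1 probe set gave a log2 ratio of -0.44. E2f5, a factor that works with p130, read 113 on day 14 against 68.1 on day 2, short of a call.

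CDK inhibitors block the cyclin-dependent kinases. Of 7 measured for day 14 against day 2, 4 were called higher and 0 lower, where 22.8% of all measured genes were called higher. The median log2 ratio was 1.095. Cdkn2a and Cdkn2b were at the floor on day 2 and could be measured only as higher. Cdkn1c, which encodes p57, was 14.9-fold higher, Cdkn1b, which encodes p27, 4.06-fold and Cdkn2b, which encodes the Cdk4 inhibitor p15, at least 3.15-fold. The second Cdkn1b probe set was at the floor on day 14, and its log2 ratio of -0.32 is a bound. Cdkn2c, which encodes the Cdk4 inhibitor p18, read 675 on day 14 against 503 on day 2, short of a call. At the steps, Cdkn1c was 12.7-fold higher on day 3 than on day 2, 2.77-fold higher on day 5 than on day 3 and 2.37-fold lower on day 14 than on day 5, whereas Cdkn1a was 2.60-fold lower on day 5 than on day 3.

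The proteins that work with the pocket proteins mostly stayed short of a call. Of 17 measured partners, among them chromatin and DREAM complex subunits, 1 was higher and 0 were lower on day 14 against day 2, and the median log2 ratio was -0.13. The exception was Smarca2, the chromatin remodeller BRM, at least 4.83-fold higher. Its second probe set was at the floor on day 2, and its log2 ratio of 0.41 is a bound. Of 14 measured genes of D cyclin assembly, folding and turnover, 2 were higher and 1 lower in the same comparison, with a median of 0.22. Over all measured genes, 22.8% were called higher and 14.8% lower there, with a median of 0.20. The counts of both lists lay under these shares. Cryab, a chaperone that also serves a ubiquitin ligase of cyclin D1, was 8.50-fold higher and Usp2, a protease known in human cells to remove ubiquitin from cyclin D1, at least 4.87-fold. Cdk7, the kinase that activates Cdk4, was 2.13-fold lower.

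Genes that feed into D cyclin transcription were mostly higher late. Of 15 measured for day 14 against day 2, 10 were higher and 1 lower. Mycn, Tcf7l2 and Stat5a were at the floor on day 2 and could be measured only as higher. Of all measured genes, 22.8% were called higher and 14.8% lower. The median log2 ratio of the 15 was 1.74, beside 0.20 for all measured genes. Fgfr1, a fibroblast growth factor receptor, was 12.1-fold higher, Foxo1, which represses Ccnd1 and Ccnd2 and activates arrest genes, 10.0-fold and Stat3, a cytokine-activated factor, 8.20-fold. Fosl1, the AP-1 subunit Fra-1, was the lower call (2.81-fold). The AP-1 genes Fos and Jun read 9069 and 4825 on day 14, against 1139 and 795 on day 2. Markers of other cells were higher over the same days, as given above.

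**Figure D4:**
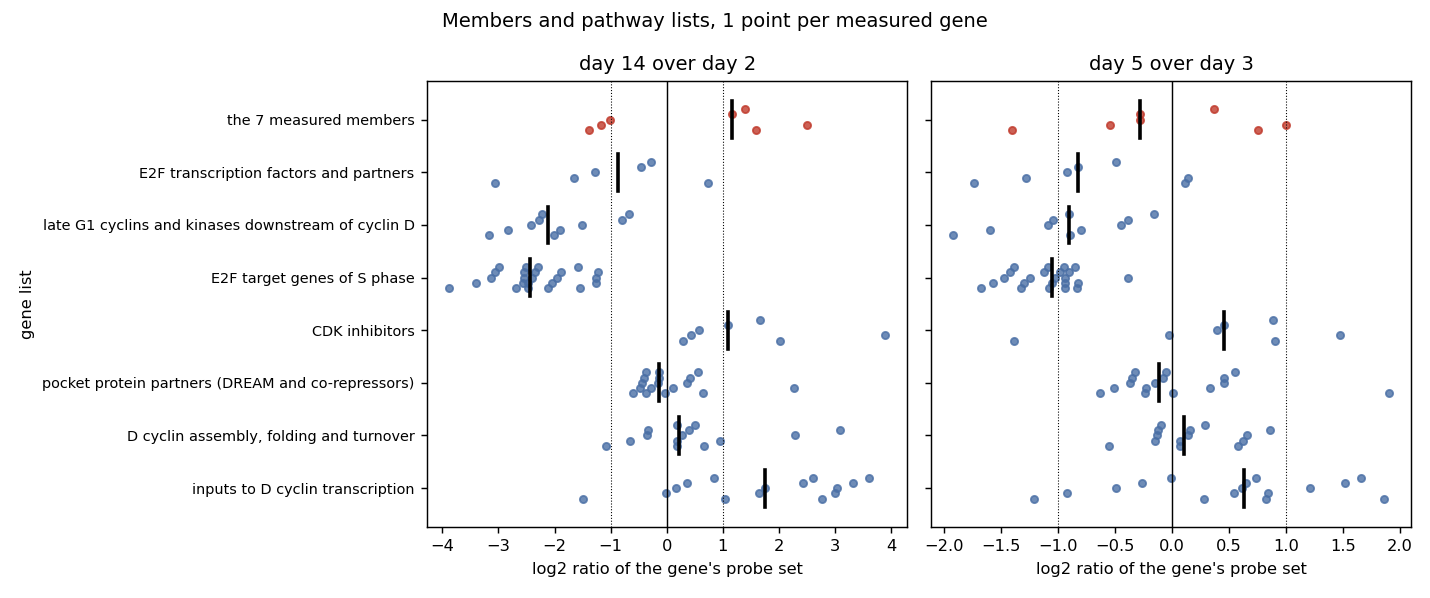
Log2 ratio of each measured gene in 2 comparisons, day 14 over day 2 (left) and day 5 over day 3 (right), with 1 point per gene, black bars for the median of a list and dotted lines for 2-fold. The E2F targets and late G1 genes lie left of 0. For day 14 over day 2 the CDK inhibitors lie right of 0, and the 7 measured members split into 4 on the right and 3 on the left. Rbl2 and 2 of the CDK inhibitors were at the floor on day 2 and could lie only on the right in that panel.

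Promoter sequence was at hand in RefSeq (build GRCm38.p6) for 5 of the 8 genes, Ccnd3, Cdk4, Cdk6, Rbl1 and Rbl2, in 6 windows of 250 bases before a start site. They were searched on both strands for an E2F site, with the spellings TTCCCGC and TTGGCGC and also with TTCGCGC as well as TTGCCGC, and for the E-box CACGTG that Myc and its partner Max bind. The 3 promoters below are shown because Rbl1 and Rbl2 are related genes with opposite courses and because Cdk4 holds repeated E-boxes. Capitals mark the matches, and each sequence runs 5′ to 3′ along the gene's strand.
Rbl1 chr2:157204535-157204784 (minus strand): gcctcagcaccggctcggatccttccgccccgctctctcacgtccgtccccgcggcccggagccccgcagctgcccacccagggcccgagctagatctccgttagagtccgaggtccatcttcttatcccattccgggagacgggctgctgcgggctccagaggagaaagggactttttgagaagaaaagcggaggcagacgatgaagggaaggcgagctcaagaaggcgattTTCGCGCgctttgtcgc
Rbl2 chr8:91069807-91070056 (plus strand): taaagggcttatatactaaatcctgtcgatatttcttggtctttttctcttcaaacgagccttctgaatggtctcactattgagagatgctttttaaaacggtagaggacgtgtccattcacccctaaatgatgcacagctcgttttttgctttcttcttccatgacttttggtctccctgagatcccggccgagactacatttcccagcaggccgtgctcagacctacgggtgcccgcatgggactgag
Cdk4 chr10:127063285-127063534 (plus strand): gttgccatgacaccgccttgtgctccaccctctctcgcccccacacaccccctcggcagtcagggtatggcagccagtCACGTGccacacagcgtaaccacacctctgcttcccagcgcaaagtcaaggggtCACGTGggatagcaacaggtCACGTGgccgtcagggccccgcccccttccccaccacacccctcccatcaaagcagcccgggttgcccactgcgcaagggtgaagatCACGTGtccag

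Rbl1 held 1 E2F match, TTCGCGC, which begins 17 bases before the start, and Rbl2 held none of these spellings. An E2F match was present in 7.89% of 32851 promoter windows. By gene it was present in 13 of the 24 E2F target genes of S phase with a window (54.2%), beside 9.01% of all genes with a window. That list is made of known E2F targets, so its share of matches describes how it was chosen. Rbl1, whose gene is itself known as an E2F target, was 2.62-fold lower on day 14 than on day 2. In that comparison 14.8% of all measured genes were called lower. The part of the E2F match in the course of Rbl1 was not tested. Cdk4 held 4 E-boxes, which begin 172, 118, 98 and 11 bases before the start, a number reached by 7 of 32851 windows (0.0213%). Cdk6 held 1 E-box and the 2 windows of Ccnd3 none. Cdk4 is known as a target of Myc. Myc itself read 347, 356, 640.1 and 1161 on days 2, 3, 5 and 14, and was 3.34-fold higher on day 14 than on day 2, whereas Cdk4 was 2.24-fold lower. A match of letters is a description, and no binding was measured.

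Other genes were compared with each of the 6 members above the floor on all 4 arrays, by the distance between log2 levels centred on each gene's mean over 4 arrays. The 5915 genes compared were all above the floor on every array. The closest to Ccnd1 was Msmo1, an enzyme of cholesterol synthesis, at a distance of 0.48, and it read 512, 223, 63.5 and 238 on days 2, 3, 5 and 14. The next, Hoxa9 and Gabpb1, lay at 1.098 and 1.114. The closest to Ccnd2 were Mospd2, Bag3 and Mfsd6, at distances of 0.15 to 0.18. The closest to Ccnd3 were Prrc2a, Pcsk7 and Trpc4ap, at 0.10 to 0.12. The closest to Cdk4 were Lrrc59, Prelid1 and Ctnnbip1, at 0.05 to 0.06, those to Rb1 were Orai1, Psrc1 and Lbx1, at 0.07 to 0.08, and those to Rbl1 were Cse1l, Polr2g and Dph5, at 0.05 to 0.06.

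The 3′ to 5′ signal ratio of control probe sets, a sign of RNA length, was 2.17, 1.88, 2.87 and 2.84 for Gapdh and 1.80, 2.20, 2.19 and 2.14 for Actb on days 2, 3, 5 and 14. Its part in the spread between the Ccnd1 probe sets was not tested.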

How the data were processed

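Per the submitters' processing notes, each deposited value is the MAS5 signal intensity of a probe set, on a linear scale. Neither the settings of MAS5 nor its target were stated. Per the labels' protocols, RNA was labelled by the small sample assay, version II, which amplifies it. The 4 arrays (days 2, 3, 5 and 14, 1 each) were scaled to a common mean after trimming 2% at each end. Values under the pooled median were set to that floor (43.0) and log2 ratios taken, in Python 3.11.15 with pandas 2.3.3. Of 22690 probe sets, 20393 had 1 gene symbol, 691 several (left out) and 1606 none here. The ratio code was tested on simulated data. Named were the 8 members, up to 3 called genes per direction of each list and comparison, genes a sentence on a member needs, and the 3 nearest patterns of each member above the floor on every array whose log2 levels span at least 1. Members and lists were chosen with earlier results of these data known. Precision is limited by the number of arrays. The 9 alternatives concerned scaling, floor, probe set choice and the fold of a call.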

Additional observations from a re-analysis of the deposited data

How the results depend on the processing

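Over 6 comparisons and 9 other settings, 37 of 54 counts of called members were within 1.5 times the count reported. For day 5 against day 3 the count of 2 was 1 after quantile normalization, with a common median, with a floor of 100, with log2 of signal plus 32 and with the median over probe sets. For day 14 against day 5 the count of 2 was 1 with the median over probe sets. For day 14 against day 2 the count of 7 was 3 after quantile normalization and 4 with log2 of signal plus 32. For day 5 against day 2 the count of 5 was 3 after quantile normalization, 3 with a floor of 100, 2 with log2 of signal plus 32 and 2 with the median over probe sets. For day 14 against day 3 the count of 1 was 2 with the values as deposited, after quantile normalization, with a common median and without probe sets ending in _s_at or _x_at, and 5 with calls at 1.5-fold, which lowers the threshold by construction. The cause of the other shifts was not tested. Of 375 ratios of single members under these settings, 329 stayed on the same side of the threshold in use, 33 calls were lost, 13 ratios became calls, 7 of them only through the lower threshold of 1.5-fold, and 0 called ratios changed sign. Some of these 375 ratios could not change. Calls cannot be lost at 1.5-fold, and the other floors leave signals above 100 as they are. Ccnd3 and Rb1 have 1 probe set each, so the other probe set choices repeat their ratios. No paired analysis was possible because each day has 1 array. Signals at or near the floor limit Cdk6 on all 4 days, and Ccnd2 and Rbl2 on days 2 and 3.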
